A study of Homo sapiens with 6 samples.

Results

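The genes described here are 9 components and regulators of the complement system: C3, C1R, C1S, CFB, CFI, CD46, CD55, CD59 and SERPING1. They were chosen by gene name, and each row of the expression table whose name matched was taken. Of the 9 genes, 7 were listed among the 15897 genes of the table, and CFB and CFI were not listed. Of the 7 listed, 5 (C3, C1R, CD46, CD55 and CD59) had a mean expression over the 6 libraries of at least 0.5 FPKM and were tested, while C1S and SERPING1 lay under that filter. FPKM, the fragments of a gene scaled by its length and by the mapped fragments of the library, is a level corrected for gene length and library size.

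The libraries were made from total RNA of H1650, an established human cell line from a lung adenocarcinoma, and 3 are labelled control (wild type) and 3 shSETD2. In the second group short hairpin RNAs were directed against SETD2, the enzyme that trimethylates lysine 36 of histone H3, and the comparison asks which genes change when it is depleted. The study made 3 hairpin constructs and lentiviral stable lines, and the labels do not give the construct of a library or say whether libraries of a group came from separate cultures. The p-values therefore measure only the spread between these libraries. Sequencing depth is unknown, since only FPKM values were used, so that no counting error can be given for any value.

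SETD2 itself had 18.0, 10.2 and 17.6 FPKM in control libraries 1 to 3 and 8.97, 8.09 and 12.2 FPKM in shSETD2 libraries 1 to 3. The mean was lower in shSETD2, but the groups overlapped, since control library 2 lay under shSETD2 library 3. The log2 fold change of SETD2 was -0.58 (SE 0.24), with a limma adjusted p of 0.0641, over the threshold of 0.05. Without control library 2 it was -0.83 with a limma adjusted p of 0.00666, and without shSETD2 library 3 it was -0.73 with a limma adjusted p of 0.042, within a range of 0.00666 to 0.377 over its alternatives. Leaving out each of the other 4 libraries in turn gave -0.45 to -0.53, with limma adjusted p from 0.149 to 0.181. After median ratio scaling it was -0.25 with a limma adjusted p of 0.377, and relative to the median of all genes it was -0.29. After quantile normalization it was -0.58 with a limma adjusted p of 0.0836. With the replicate number as a block, the limma adjusted p was 0.0157.

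The labelled cell type was checked against markers. Of 9 markers of lung epithelium, 1 was listed, NKX2-1, with 1.71, 1.80 and 1.44 FPKM in the control libraries, and it was listed at 0 in each shSETD2 library. The surfactant genes SFTPA1, SFTPA2, SFTPB, SFTPC and SFTPD, NAPSA, SCGB1A1 and SCGB3A2 were not listed, so the lung identity given by the label rested on NKX2-1 in control alone among these markers. Of 8 general epithelial markers 7 were listed, summing to 16.0, 14.1 and 14.8 FPKM in control and to 438, 402 and 455 FPKM in shSETD2, mostly KRT18, KRT8 and KRT7. Without a filter on low values 5 of the 7 were called higher, CLDN4 and ESRP1 among them at under 1 FPKM, and 2 lower, CDH1 from a mean of 1.27 to 0.0120 FPKM and EPCAM from 0.710 to 0.220 FPKM. Of 8 markers of embryonic kidney and renal epithelium 7 were listed, summing to 21.3, 22.3 and 20.7 FPKM in control and to 55.9, 46.0 and 48.6 FPKM in shSETD2, where PAX8 led and SALL1 and EYA1 were listed at 0; 4 of the 7 rose and 3 fell. Of 10 markers of fibroblasts and mesenchyme 6 were listed, summing to 71.0, 68.7 and 85.8 FPKM in control and to 132, 130.1 and 139 FPKM in shSETD2. The sum rose through VIM, while ACTA2 went from a mean of 4.43 to 1.12 FPKM and COL1A1 from 2.78 to 0.269 FPKM, and without a filter on low values 1 of the 6 was called higher and 4 lower. Of 7 leukocyte and macrophage markers, CD68 and CD14 were listed, at 1.33, 1.35 and 1.62 FPKM together in control and 1.91, 2.24 and 2.02 FPKM in shSETD2, with CD68 the more abundant, and PTPRC was not listed. Of all genes, 78.6% were called in the filtered fit (26.8% higher, 51.8% lower) and 77.4% without a filter (51.8% lower), so that most markers were called is no result about these lists. Across genes, Pearson's r of log2(FPKM + 1) was 0.982 to 0.990 between libraries of a group and 0.701 to 0.707 between groups. Whether both groups are the labelled cell line was not tested, and a difference between the cells of the groups cannot be told apart from an effect of the hairpins in any value given here. The part of these marker differences in the complement results was not tested.

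Control library 2 stood apart in markers of hepatocytes, the cells that make most complement proteins of the blood. Of 8 such markers 5 were listed, and their summed level was 4.79, 27.0 and 4.20 FPKM in control libraries 1 to 3 and 0.444, 0.546 and 0.494 FPKM in the shSETD2 libraries. ALB was the most abundant in control, with 2.54, 15.8 and 2.38 FPKM, and ALB, FGA and FGB were listed at 0 in each shSETD2 library, where SERPINA1 led. HNF4A, APOB and TTR were not listed. C3, C1R, C1S and SERPING1 each had their highest control value in that library. C1S was at 1.95, C3 at 1.58 and SERPING1 at 1.10 times the mean of control libraries 1 and 3. So was the highest control value of CD46, at 1.05 times, and of C1RL (1.65 times), C2, C5 and C4BPB among other complement genes. CD55, CD59 and the other listed complement genes did not have their highest control value there. The values of C3, C1R, C1S and SERPING1 are also given without control library 2, and the part of the hepatocyte signal in them was not tested.

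Complement is a cascade of blood proteins that marks cells and microbes for removal and can perforate their membranes. Its classical branch starts when the proteases C1r and C1s, bound to C1q, are activated on a surface; the branches meet at the cleavage of C3, whose fragment C3b binds covalently to nearby surfaces. Host cells are protected by soluble inhibitors such as C1 inhibitor and by membrane proteins that dismantle convertases or block the terminal pore, and epithelial cells, those of the lung included, make several of these proteins themselves.

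The groups differed across most of the transcriptome. Of 14068 genes tested, 11057 passed a limma adjusted p under 0.05 (78.6%), 3774 higher in shSETD2 (26.8% of genes tested) and 7283 lower (51.8%). Each of the 5 tested complement genes passed, 3 of them higher (C3, CD59 and CD46) and 2 lower (CD55 and C1R), and against 78.6% of all genes that count is not a result about the complement genes. What set them apart from one another was the size of the change, from a rise of 5.15 for C3 to a fall of 0.48 for C1R on the log2 scale. The median log2 fold change was 0.20 over the 5 tested complement genes and -0.29 over all genes tested. In a fit with no filter on low values it was -0.37 over the 7 listed genes, where 77.4% of all genes were called. C1R reached the filter only through control, with a mean of 0.846 FPKM there and 0.321 FPKM in shSETD2. SERPING1, with means of 0.942 and 0.0439 FPKM, did not reach it. Which of these low genes were tested thus depended on the size of their fall.

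Fold changes are on the scale of log2(FPKM + 1), shSETD2 minus control, so the change of a gene with few FPKM is understated. The median of all genes, -0.29 on the deposited scale, was -0.01 after median ratio scaling and -0.11 after quantile normalization, and median ratio scaling gave 5305 genes higher and 5394 lower. Changes of the tested complement genes are therefore also given relative to the median, and those of C1S and SERPING1 after median ratio scaling. None of the 7 listed complement genes overlapped between groups, 3 of them higher and 4 lower in each shSETD2 library than in each control library. Of the 15775 genes above 0 in at least 1 library, 26.7% were higher without overlap and 53.3% lower without overlap. The two-sided exact permutation test gave p = 0.1 for each of the 7, the smallest value that 3 libraries a group allow.

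**Figure D1:**
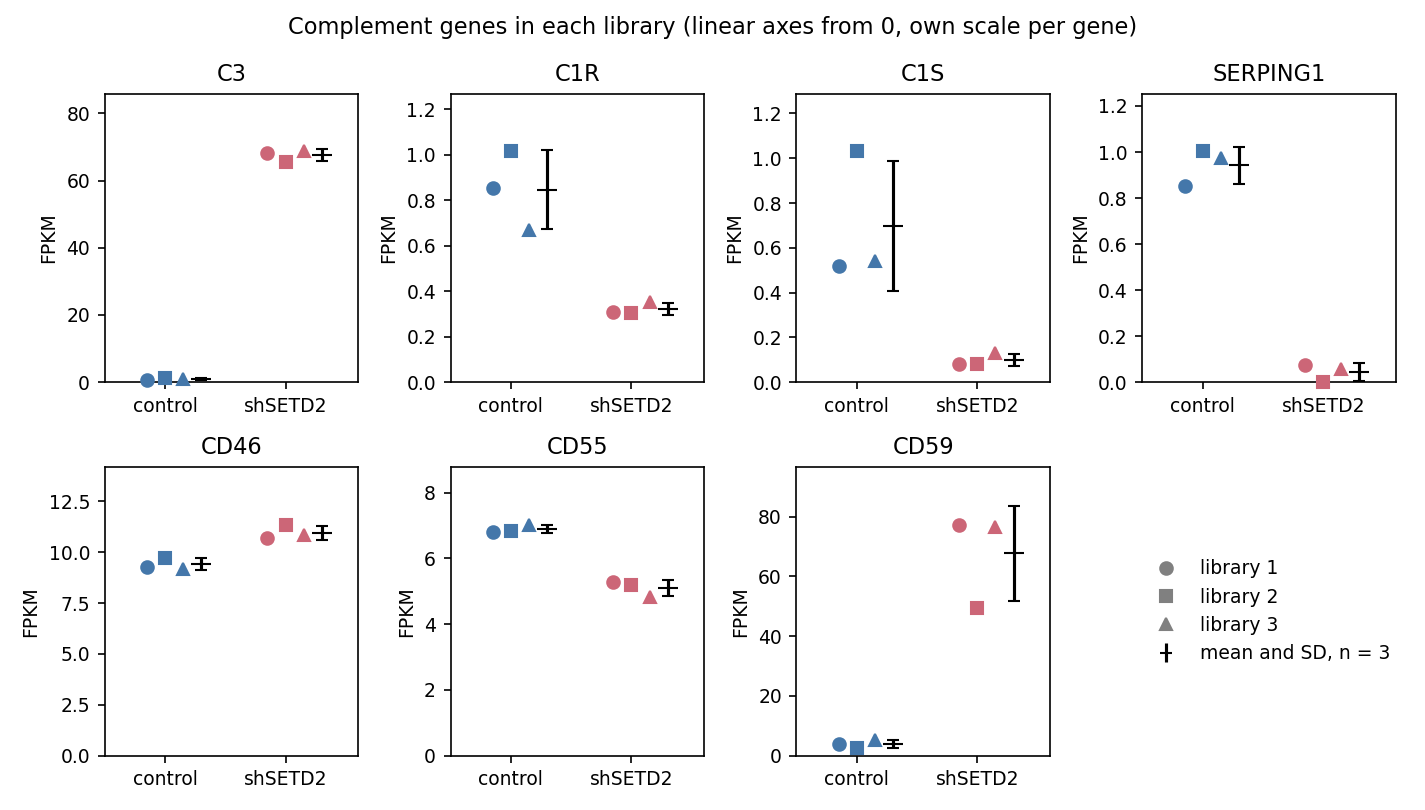
FPKM of the 7 listed complement genes in each library of control (blue) and shSETD2 (red), on linear axes from 0 with a scale of its own for each gene; marker shapes give the library number and black bars the mean and SD (n = 3). C3 and CD59 stand near 0 on their axes in control and at 49.3 FPKM or more in shSETD2, while CD46 and CD55 differ by far less and SERPING1, C1S and C1R are under 1.1 FPKM throughout.

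C3, the protein at which the branches of the cascade meet, changed most. Its level was 0.769, 1.24 and 0.800 FPKM in control libraries 1 to 3 and 68.3, 65.5 and 68.7 FPKM in shSETD2 libraries 1 to 3. The shSETD2 libraries lay close together, and each was far above the highest control library, library 2. The mean rose from 0.937 ± 0.263 to 67.5 ± 1.76 FPKM (SD, n = 3), a ratio of 72.1. On the log2 scale the rise was 5.15 (SE 0.097, 95% confidence interval 4.92 to 5.39), or 5.44 above the median of all genes, with a limma adjusted p of 7.29e-08. Without control library 2 the rise was 5.26, slightly larger.

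In rank, C3 went from the lower end of the table to its top. The share of the 15897 listed genes with a lower FPKM than C3 ran from 17.0% to 24.2% over the control libraries and from 97.5% to 97.6% over the shSETD2 libraries. Only 65 of the 14068 genes tested had a higher log2 fold change. The gene lies on the minus strand of chr19:6677715-6730573 (GRCh37), where its first 649 bases overlap the end of GPR108 on the same strand. GPR108, named for its position, had a mean of 7.43 FPKM in control and 8.19 FPKM in shSETD2, so it did not share the jump of C3. The transcript AC008760.2 lies inside C3 on the same strand, with a mean of 0.00508 FPKM in control and 1.77 FPKM in shSETD2, and how reads were divided between it and C3 is not given in the sources used here.

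The tested genes outside the 9 whose values lay nearest to those of C3 were IGFBP7, CAV1 and NQO1, at Euclidean distances of 0.56, 0.57 and 0.69 over the 6 libraries on the log2 scale. IGFBP7 had a mean of 0.602 FPKM in control and 75.3 FPKM in shSETD2, CAV1 1.32 and 71.1 FPKM, and NQO1 0.561 and 72.8 FPKM. Nearness in these values is a description and says nothing of shared control.

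**Figure D2:**
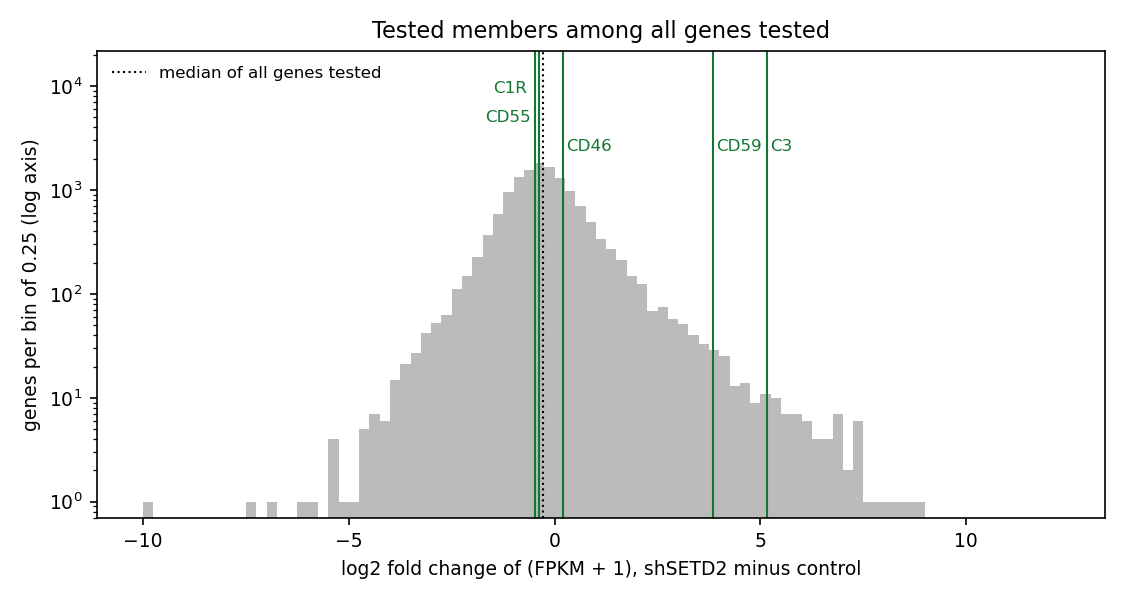
Number of genes per bin of log2 fold change (shSETD2 minus control, log vertical axis) for the 14068 genes tested, with green lines at the 5 tested complement genes and a dotted line at the median of all genes. C3 (5.15) and CD59 (3.84) lie in the sparse upper tail, and CD46, CD55 and C1R lie in the bulk on either side of the median of -0.29.

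The proteases of the classical pathway went the other way, from levels that were low to begin with. C1R, which cleaves C1s within the C1 complex, had 0.856, 1.02 and 0.668 FPKM in control and 0.307, 0.306 and 0.351 FPKM in shSETD2. The shSETD2 values were close together and under each control value. C1R fell by 0.48 on the log2 scale (SE 0.081), or by 0.19 relative to the median of all genes, with a limma adjusted p of 0.00162. In mean FPKM, control was 2.63 times shSETD2. Without control library 2 it fell by 0.41 with a limma adjusted p of 0.00276.

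The fall of C1R depended on the scale. In rank it was flat: 15.5% to 21.0% of listed genes lay under it in the control libraries and 17.7% to 19.2% in the shSETD2 libraries. After quantile normalization, which compares ranks, its log2 fold change was -0.0048 with a limma adjusted p of 0.962, within a range of 0.000638 to 0.962 over its alternatives. After median ratio scaling it was -0.35 with a limma adjusted p of 0.00549, so the call held there. With a pseudocount of 0.01 in place of 1 it was -1.35.

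C1S, the protease that cleaves C4 and C2, had 0.518, 1.03 and 0.540 FPKM in control and 0.0811, 0.0826 and 0.129 FPKM in shSETD2. Control library 2 was nearly 2 times the others, and the groups did not overlap. Its mean over the 6 libraries, 0.397 FPKM, was under the filter, so it has a value only in the fit without a filter, where 51.8% of genes were called lower. There its log2 fold change was -0.62 (SE 0.12) with a limma adjusted p of 0.00314, and without control library 2 it was -0.48 with a limma adjusted p of 0.000313. After median ratio scaling it was -0.53 with a limma adjusted p of 0.00479. After quantile normalization it was -0.15 with a limma adjusted p of 0.282, the highest of a range from 0.000313, and with a pseudocount of 0.01 it was -2.67. These alternatives without a filter were chosen after seeing the data.

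The pair did not fall in proportion. The ratio of C1R to C1S in FPKM was 1.65, 0.985 and 1.24 in the control libraries and 3.79, 3.70 and 2.73 in the shSETD2 libraries, so that C1S lost more of its level. The ratio of C3 to C1R moved further, from 0.899, 1.22 and 1.20 in control to 222, 214 and 196 in shSETD2. C3 and C1R thus had like levels in control and lay far apart in shSETD2.

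C1S (chr12:7096351-7178336, plus strand, GRCh37) and C1R (chr12:7187513-7245203, minus strand) point at each other, with 9176 bases between their ends. On the far side, C1R overlaps the C1r-like protease gene C1RL by 3021 bases on the same strand. C1RL had 0.495, 0.635 and 0.274 FPKM in control and 2.91, 2.16 and 3.74 FPKM in shSETD2, and it rose by 1.41 on the log2 scale with a limma adjusted p of 0.000267. So C1R fell while the overlapping gene rose, and reads from the shared stretch could have been given to either. C1S overlaps EMG1 by 9170 bases on the same strand and LPCAT3 by 29464 bases on the opposite strand, both named for their position. EMG1 had a mean of 4.85 FPKM in control and 1.27 FPKM in shSETD2, lower as C1S was, and LPCAT3 had 3.82 and 8.54 FPKM. The library kit keeps strand, but whether the quantification used it is not given in the sources used here, so the low values of C1R and C1S are uncertain to that extent.

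The tested genes nearest to C1R in value were CATSPER2, STS and ZNF599, at distances of 0.15, 0.16 and 0.17 over the 6 libraries on the log2 scale. Each had a control mean between 0.852 and 0.872 FPKM and an shSETD2 mean between 0.274 and 0.354 FPKM, against 0.846 and 0.321 FPKM for C1R.

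SERPING1 encodes C1 inhibitor, the serpin that inactivates C1r and C1s. It had 0.851, 1.00 and 0.973 FPKM in the control libraries and 0.0727, 0 and 0.0590 FPKM in the shSETD2 libraries. The control values were close together, control library 2 was only slightly the highest, and the gene was listed at 0 in shSETD2 library 2. Its mean over the 6 libraries was 0.493 FPKM, just under the filter of 0.5. Without the filter its log2 fold change was -0.90 (SE 0.056) with a limma adjusted p of 1.41e-05. It was -0.87 without control library 2, -0.52 after quantile normalization with a limma adjusted p of 0.00351, and -4.63 with a pseudocount of 0.01. After median ratio scaling it was -0.80 with a limma adjusted p of 2.37e-05. The gene lies on the plus strand of chr11:57364860-57382326 (GRCh37), and no other listed gene overlaps it there.

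On the deposited scale the inhibitor and both of its target proteases were lower in shSETD2, as most genes were, but after quantile normalization the call held for SERPING1 and was lost for C1R and C1S. In control the levels of C3, C1R, C1S and SERPING1 overlapped, all between 0.518 and 1.24 FPKM. In shSETD2 they were spread out in the order C3, C1R, C1S and SERPING1, with no overlap between neighbours in that order, although C1S at 0.0811 FPKM and SERPING1 at 0.0727 FPKM nearly touched. As these are bulk samples, fewer cells making a transcript and less of it per cell cannot be told apart.

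Of the 9 complement genes, 6 had entries among the RefSeq promoter windows (GRCh38.p14, 250 bases before to 50 after a start), 11 windows in all. C3, C1S and SERPING1 had no entry. Windows were searched on both strands for the GC box GGGCGG, the TATA box TATAAA, the STAT element TTCNNNGAA, the C/EBP element TTGCNNAA and the NF-κB element. Of 35116 promoter windows of the same length, 45.0% held the GC box, 11.5% the TATA box, 7.66% the STAT element, 10.5% the C/EBP element and 11.3% the NF-κB element. Of the genes with an entry, C1R and the 3 membrane regulators were measured, and 1 window of each is printed, the most upstream, since these are the measured genes whose values are set side by side. Capitals mark matches, none of which overlapped within a printed window. The windows are of CD59 (chr11:33736430-33736729, minus strand), CD46 (chr1:207751788-207752087, plus strand), CD55 (chr1:207321428-207321727, plus strand) and C1R (chr12:7092396-7092695, minus strand), each 5′ to 3′ along the gene.
CD59: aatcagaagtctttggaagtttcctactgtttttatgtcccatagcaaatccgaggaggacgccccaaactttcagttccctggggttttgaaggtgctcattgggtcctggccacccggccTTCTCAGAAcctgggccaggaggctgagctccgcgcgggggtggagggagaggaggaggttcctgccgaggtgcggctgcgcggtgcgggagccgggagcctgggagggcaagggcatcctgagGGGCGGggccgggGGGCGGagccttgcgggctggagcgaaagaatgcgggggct
CD46: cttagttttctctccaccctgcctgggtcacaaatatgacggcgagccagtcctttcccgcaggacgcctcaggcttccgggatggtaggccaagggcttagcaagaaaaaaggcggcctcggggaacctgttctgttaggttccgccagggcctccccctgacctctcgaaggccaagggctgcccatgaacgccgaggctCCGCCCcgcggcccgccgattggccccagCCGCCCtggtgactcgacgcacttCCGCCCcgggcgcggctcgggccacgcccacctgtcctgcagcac
CD55: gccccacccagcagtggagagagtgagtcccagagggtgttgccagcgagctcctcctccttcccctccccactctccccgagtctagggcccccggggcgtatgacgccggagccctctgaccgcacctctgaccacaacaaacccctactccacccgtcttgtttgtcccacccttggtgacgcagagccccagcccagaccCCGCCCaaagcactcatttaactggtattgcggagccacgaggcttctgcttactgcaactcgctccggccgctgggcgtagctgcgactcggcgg
C1R: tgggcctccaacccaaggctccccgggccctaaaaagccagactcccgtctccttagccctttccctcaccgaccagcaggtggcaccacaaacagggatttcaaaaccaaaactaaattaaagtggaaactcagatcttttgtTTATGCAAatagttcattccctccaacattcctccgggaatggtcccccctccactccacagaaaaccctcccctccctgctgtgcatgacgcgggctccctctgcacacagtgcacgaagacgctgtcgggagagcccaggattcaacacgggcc

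The printed windows of the 3 membrane regulators held GC boxes, 2 in CD59, 3 in CD46 and 1 in CD55, and that of C1R held none. The CD59 window also held a match to the STAT element, beginning at -128 from the start, and the C1R window a match to the C/EBP element at -106. Among the windows not printed, that of C1R held no GC box but a STAT match at -86 and a C/EBP match at -167. Of the other CD59 windows, 1 held the same GC boxes and STAT match as the one printed, 1 held 2 C/EBP matches and no GC box, and 1 held no match. The TATA box and NF-κB letters were in no window of C1R, CD46, CD55 or CD59. The window of CFB, a gene not listed, held a TATA box at -30, a STAT match at -92 and an NF-κB match at -112. That of CFI, also not listed, held no match. A match is a description of the letters, not a bound site, and the expression values do not say which of the 4 annotated CD59 starts or 2 C1R starts was used.

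The membrane regulators CD46, CD55 and CD59 shield the cells that carry them, each at its own step. CD59, which stops C9 from completing the membrane pore, had 3.91, 2.41 and 5.23 FPKM in control and 77.3, 49.3 and 76.6 FPKM in shSETD2. Library 2 was the lowest of both groups, and the groups were far apart. The mean rose from 3.85 ± 1.41 to 67.8 ± 16.0 FPKM (SD, n = 3), a ratio of 17.6. On the log2 scale the rise was 3.84 (SE 0.27, 95% confidence interval 3.19 to 4.48), or 4.13 above the median of all genes, with a limma adjusted p of 1.91e-05. It was 3.61 without control library 2 and 4.05 without shSETD2 library 2.

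CD59 varied more within groups than the other membrane regulators. Its coefficient of variation was 36.6% in control and 23.5% in shSETD2, against 3.08% and 3.13% for CD46 and 1.77% and 4.88% for CD55. Still, 150 of the 14068 genes tested had a higher log2 fold change, and its mean over the 6 libraries, 35.8 FPKM, was the highest of the 7 listed genes among the 9. The genes nearest to it in value were SH2B3, EGFR and TAPBP, at distances of 0.87, 0.87 and 0.89 over the 6 libraries on the log2 scale, and each of these varied less between libraries of a group. The gene lies on the minus strand of chr11:33719807-33757991 (GRCh37), and its row spans C11orf91, named for its position, over 2541 bases on the same strand. C11orf91 had a mean of 0.383 FPKM in control and 2.48 FPKM in shSETD2.

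CD46, the cofactor with which factor I cleaves C3b and C4b, had 9.29, 9.74 and 9.20 FPKM in control and 10.7, 11.4 and 10.8 FPKM in shSETD2. The groups did not overlap, but they were separated by less than 1 FPKM. The mean went from 9.41 ± 0.289 to 11.0 ± 0.343 FPKM (SD, n = 3), which made a log2 rise of 0.20 (SE 0.047) with a limma adjusted p of 0.00698. Relative to the median of all genes the rise was 0.49, and after median ratio scaling it was 0.52. After quantile normalization it was 0.26 with a limma adjusted p of 0.00202. CD46 lies on the plus strand of chr1:207925402-207968858 (GRCh37), and the annotated noncoding gene MIR29B2CHG overlaps it on the opposite strand.

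CD55, which speeds the decay of C3 and C5 convertases, had 6.79, 6.84 and 7.02 FPKM in control and 5.29, 5.20 and 4.82 FPKM in shSETD2. Each group was tight, and they did not overlap. The mean fell from 6.89 ± 0.122 to 5.10 ± 0.249 FPKM (SD, n = 3). On the log2 scale this was -0.37 (SE 0.052), with a limma adjusted p of 0.000601. Relative to the median of all genes this was -0.08, and after median ratio scaling it was -0.07 with a limma adjusted p of 0.267, so the call was lost; over its alternatives the adjusted p ran from 0.000574 to 0.267. CD55 lies on the plus strand of chr1:207494853-207560149 (GRCh37), 365252 bases before CD46 in the cluster of complement regulators. The listed AL391597.1 lies inside CD55 over 694 bases on the same strand. It had a mean of 0.577 FPKM in control and 0.0533 FPKM in shSETD2, lower as CD55 was.

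Taken by level, the order of the membrane regulators turned over. In each control library it was CD46, CD55 and CD59 from high to low, and in each shSETD2 library it was CD59, CD46 and CD55. CD59 made up 19.6%, 12.7% and 24.4% of their summed FPKM in control and 82.9%, 74.9% and 83.0% in shSETD2. The sum itself went from 20.0, 19.0 and 21.5 FPKM to 93.3, 65.9 and 92.3 FPKM. In shSETD2 the levels of C3 and CD59 overlapped, with a ratio of C3 to CD59 of 0.884, 1.33 and 0.897, against 0.197, 0.514 and 0.153 in control.

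**Figure D3:**
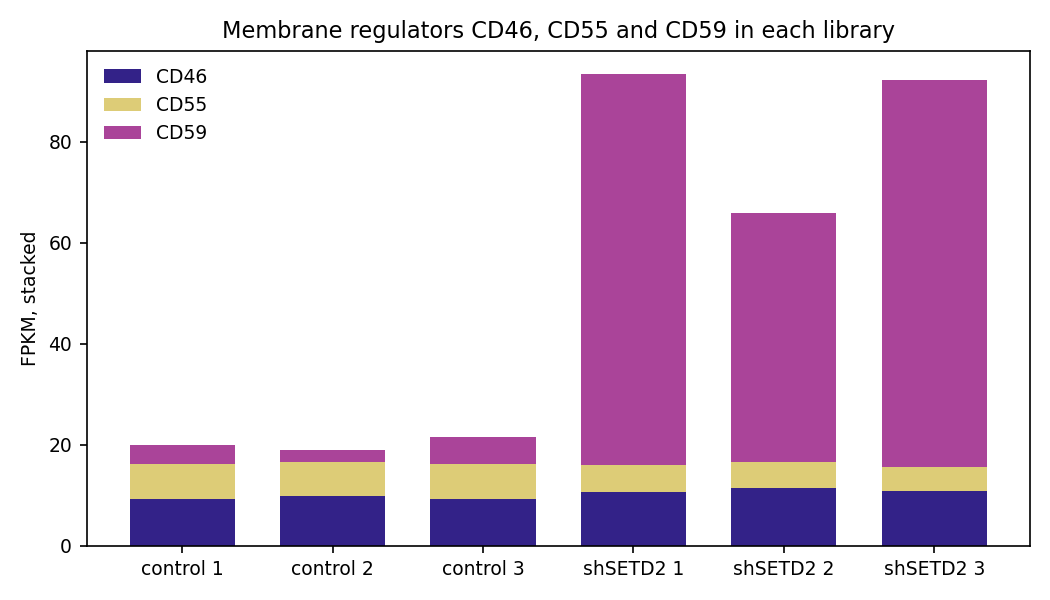
FPKM of CD46, CD55 and CD59 stacked for each of the 6 libraries, from 0. The bars rise from between 19.0 and 21.5 FPKM in control to between 65.9 and 93.3 FPKM in shSETD2, and nearly all of the added height is CD59.

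CD55 and CD46 share their cluster with other complement genes, and few of these were listed. CR2, between them on the same strand, had 0.555, 0.550 and 0.559 FPKM in control and 0, 0 and 0.0145 FPKM in shSETD2, under the filter. C4BPB was at 0.111 FPKM or less in each library, and C4BPA and CR1 were not listed. On chromosome 6, C2 lies next to CFB, which was not listed, and it had 0.689, 0.870 and 0.564 FPKM in control and 0.0156, 0 and 0 FPKM in shSETD2. So the neighbours CR2 and C2 were near 0 in shSETD2, as SERPING1 was, while CD55 and CD46 kept most of their level or more.

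Beyond the 9, 51 other genes of initiation, the alternative and terminal pathways, regulation and reception were looked up, and 10 were listed. Of these 5 were tested, 2 higher (C1RL and CLU), 2 lower (SUSD4 and C1QBP) and 1 not called (CFD). Their median log2 fold change was 0.19, the value of CFD, against -0.29 over all genes. In the fit without a filter the median turned to -0.41 over the 10 listed, against -0.29 over all genes there. With 78.6% of all genes called, 26.8% higher and 51.8% lower, these counts are not a result about complement genes. By role, 2 of 15 initiation genes were listed (C1RL and C2), 1 of 2 alternative pathway genes (CFD), 1 of 7 terminal genes (C5), 4 of 17 regulators (C4BPB, CLU, SUSD4 and THBD) and 2 of 10 receptors (CR2 and C1QBP). C4A, C4B and each C1q chain, with which C1r and C1s act, were not listed. Neither were VTN and the C3 fragment receptors C3AR1, CR1, ITGAM and ITGAX. SUSD4, a membrane regulator, had 1.78, 1.53 and 1.56 FPKM in control and was listed at 0 in each shSETD2 library (lower, limma adjusted p 2.19e-06). C1QBP, which binds C1q, had 82.2, 84.3 and 92.7 FPKM in control and 38.9, 53.6 and 61.6 FPKM in shSETD2, and its call was lost after median ratio scaling (limma adjusted p 0.0583), which called CFD higher (limma adjusted p 0.0452). The log2 fold change of CFD, the protease that cleaves factor B, was 0.48 after that scaling. On the deposited scale its value of 0.19 moved with single libraries. It was 0.03 without control library 2, 0.08 without shSETD2 library 1, 0.31 without shSETD2 library 2 and 0.32 without control library 1. The 5 genes listed but not tested were at 0.870 FPKM or less in each library, and the fit without a filter called 8 of the 10 listed, 2 higher and 6 lower, near the 77.4% of all genes called there and the 51.8% called lower.

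**Figure D4:**
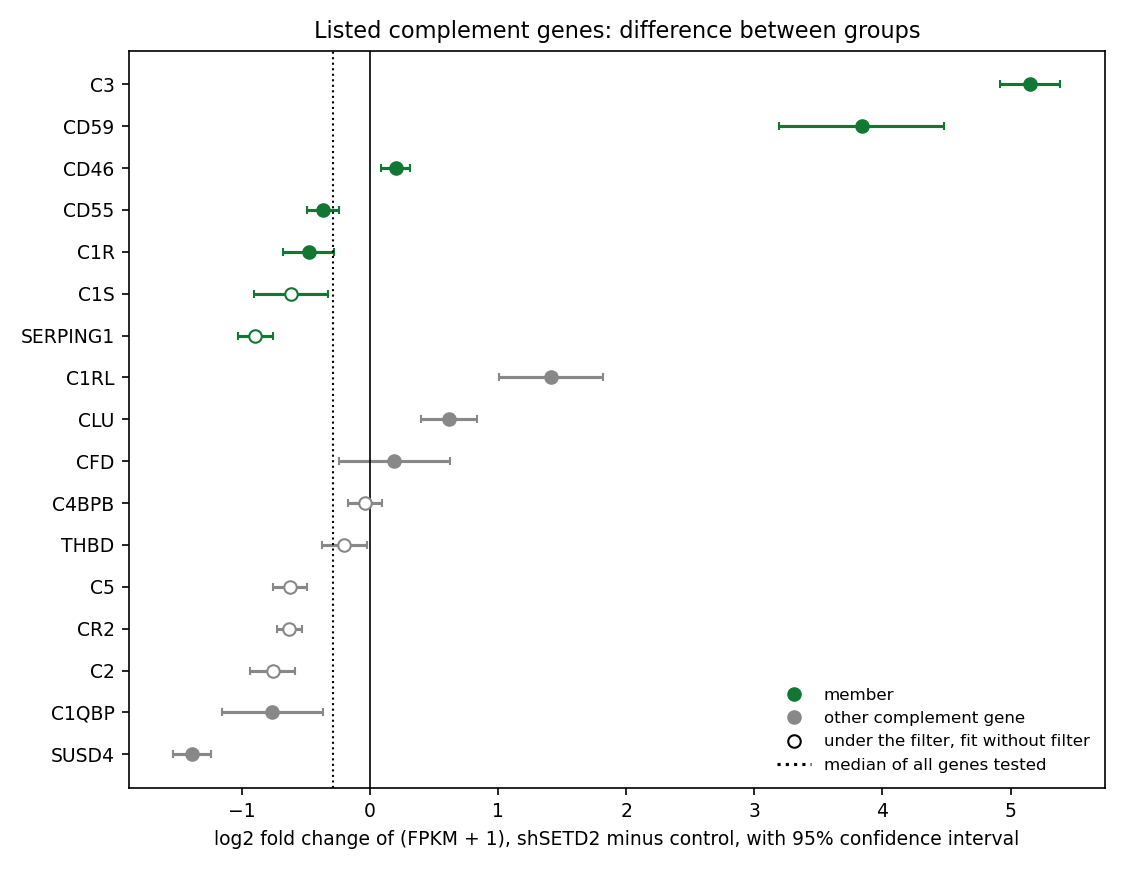
Log2 fold change of FPKM + 1 (shSETD2 minus control) with its 95% confidence interval for the 7 listed complement genes (green) and the 10 other listed complement genes (grey); open points lie under the filter and come from the fit without it, and the dotted line is the median of all genes tested. C3 and CD59 stand far to the right, and the others lie between SUSD4, listed at 0 in shSETD2, and C1RL at 1.41.

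C3 is known to be induced by cytokines through NF-κB, STAT and C/EBP factors, and 20 such cytokines and factors were looked up. Of these, 15 were listed and tested, 14 higher and 1 lower beside 26.8% and 51.8% of all genes. Their median log2 fold change was 1.61, while IL1A, IL1B, OSM, IFNG and IFNB1 were not listed. The list was chosen with earlier results of these data known, so these values are a description and no test. IL6, LIF and TNF had control means under 0.5 FPKM and passed the filter only through shSETD2, where they were high. IL6 was listed at 0 in each control library and had 179, 174 and 185 FPKM in shSETD2. LIF rose by 6.72 and TNF by 6.69 on the log2 scale, more than C3. Of the factors, CEBPD rose by 3.22, RELB by 2.76, IRF1 by 2.56, NFKB2 by 2.17, CEBPB by 1.61, STAT3 by 1.57 and NFKB1 by 1.56, and the limma adjusted p of each was under that of C1R, 0.00162. CEBPA, with 5.34, 4.85 and 6.14 FPKM in control and 0.299, 0.382 and 0.321 FPKM in shSETD2, fell by 2.27. So C3 rose beside most of its listed inducers, C1R, C1S and SERPING1 did not, and CFB was not listed; the part of these factors in any of the changes was not tested.

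**Figure D5:**
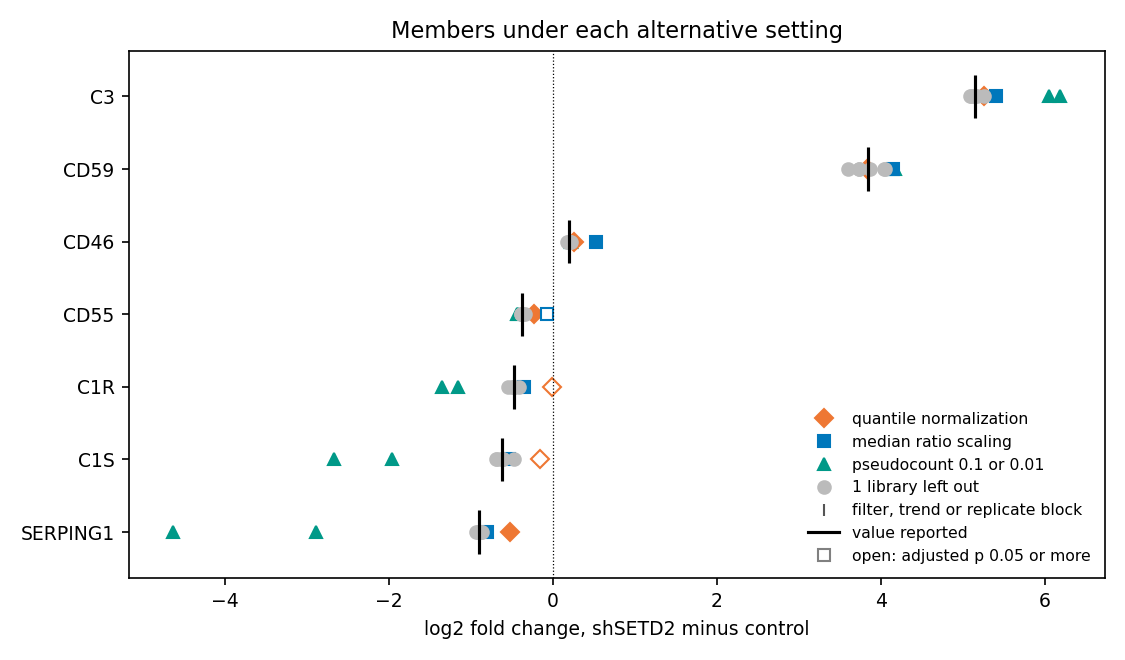
Log2 fold change of each listed complement gene under each alternative setting, with the reported value as a black line; open symbols have a limma adjusted p of 0.05 or more. The signs stay the same for each gene, the calls of C1R and C1S are lost after quantile normalization and that of CD55 after median ratio scaling, and smaller pseudocounts move the genes with low FPKM most.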

How the data were processed

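RNA-seq was available for 3 control and 3 shSETD2 libraries. The authors mapped reads to hg19 (GRCh37) with HISAT2, quantified genes with Ballgown and deposited FPKM per gene and library; versions and the filter behind the listed genes are not given in the sources used here. A second deposited table, which adds the authors' fold changes and p-values, was not used here. Low values of single-transcript genes did not fall on a common step, so depth is unknown. The highest score was 42.2%. That score is the share of values within 0.1 of a step multiplied by the share that rounded to a step rather than to none.

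Genes whose mean FPKM reached 0.5 were tested on log2(FPKM + 1) with limma 3.58.1 (intensity trend, R 4.3.3) and Benjamini-Hochberg adjustment over 14068 genes, with a threshold of 0.05. The fit was also run on simulated data in which few genes changed. That run does not bear on a shift across most genes, as in these data. Tables used Python 3.11.15, pandas 2.3.3, numpy 2.4.6 and scipy 1.17.1, and figures matplotlib 3.10.9. Named were the 9 complement genes, SETD2, other complement genes and inducers past the threshold with a log2 fold change of at least 1 in size, the 3 tested genes nearest to C3, C1R and CD59, annotated neighbours and leading or absent markers. Other genes named, those overlapping by position among them, were chosen after their values were seen. Some genes that this rule covers are left out of the text. Members and lists were chosen with earlier results of these data known. Alternatives were pseudocounts, filters, scalings, no trend, a replicate block and each library left out.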

Additional observations from a re-analysis of the deposited data

How the results depend on the processing

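Over 69 alternatives for the 5 tested complement genes, direction was the same throughout and the side of the threshold in 67; the exceptions were C1R after quantile normalization (-0.0048) and CD55 after median ratio scaling (-0.07). For C1S and SERPING1 it was the same in 23 of 24 alternatives, all without a filter and chosen after seeing the data, except for C1S after quantile normalization (-0.15). Leaving out any 1 library changed no call of these 7 genes. The number of tested complement genes called lower, 2, was 4 with no filter on low values, and 1 with a minimum mean FPKM of 5, with quantile normalization and with median ratio scaling. With the minimum of 5, which leaves fewer genes to test, 5647 genes passed, 2401 higher and 3246 lower, and the 4 complement genes left did not overlap between groups. After quantile normalization 5 of the 7 listed complement genes did not overlap. The share of all genes without overlap was not computed for the minimum of 5 or for quantile normalization. These counts are therefore no result about complement genes. On the deposited scale 26.7% of genes were higher and 53.3% lower without overlap. Of the other complement genes, 8 passed with no filter (6 lower) and 1 with the minimum of 5 (0 higher, 1 lower), and 1 was lower after median ratio scaling; the cause was not tested.

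With the replicate number as a block, 10976 genes and 5 complement genes passed, and the calls of SETD2 (limma adjusted p 0.0157) and CFD (limma adjusted p 0.0385) were gained. Deviations of same-numbered libraries correlated at -0.024, 0.018 and -0.0077, against -0.055 to 0.063 for differently numbered ones. The labels give no pairing, and the samples were not treated as paired. With 3 libraries a group these values cannot show whether same-numbered libraries shared a batch. Depth is unknown, so no counting error can be given for values as low as those of C1R, C1S and SERPING1.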

Other observations

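Of 14215 genes with a mean control FPKM of at least 0.5, 29 were at least 4 times as high in control library 2 as in either other control library, against 20 for control library 1 and 16 for control library 3. At 1.5 times, control library 2 had 239 such genes, fewer than control library 1 (259) and control library 3 (256). Among the 29 were ALB, FGA, FGB, SERPINA1, APOA2, HP, ORM2 and RBP4, all known as products of liver, which were chosen after their values were seen. HP, the haptoglobin gene, had 0.383, 2.36 and 0.396 FPKM in control libraries 1 to 3 and was listed at 0 in each shSETD2 library. None of the 9 complement genes was among the 29.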
